A study of Sus scrofa with 19 samples.

Results

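ZBTB20, AAK1 and NFAT5 were described in LV tissue of 19 pigs, with 1 RNA-seq library per pig. They are 3 of the 25879 genes in the deposited counts, were found by symbol and Ensembl identifier, and all 3 were among the 13552 genes that passed the filter on low counts. They had been picked from these same libraries because their counts were high in Hyper and Control and several-fold lower in DOX and MYO. Values in that comparison are therefore a description and carry no test. The study asked how the LV transcriptome differs between models of myocardial fibrosis. DOX pigs (n = 5) received doxorubicin and MYO pigs (n = 5) received Myocet, a liposomal form of the same drug, each as 3 cycles of 60 mg/m2, and were followed for 3 months. RemoLV pigs (n = 3) had a coronary occlusion of 90 min followed by reperfusion, and posterior wall was taken at 6 months. Hyper pigs (n = 3) had an artificial isthmus stenosis and anterior wall was taken at 6 months. Control pigs (n = 3), sham-operated by the labels and untreated by the study's methods, gave anterior wall at 6 months as well. All pigs were labelled as female large whites, and DOX and MYO have no Control library of their own follow-up time.

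ZBTB20 is a zinc finger transcription factor of the BTB family that acts mainly as a repressor, with AFP, the fetal serum protein of liver, and NFKBIA, an inhibitor of NF-kB, among its known targets. AAK1 is the adaptor-associated kinase, which phosphorylates a subunit of the AP-2 adaptor and so bears on the uptake of membrane cargo through clathrin-coated pits. NFAT5, also called the tonicity-responsive enhancer binding protein, shares its DNA-binding domain with the NFAT factors, but is not switched by calcineurin. It raises genes for transporters and enzymes of organic osmolytes when cells meet hypertonic surroundings. The 3 proteins belong to different families and pathways.

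The genes lie on different chromosomes of Sscrofa11.1. In the RefSeq models, ZBTB20 spans 812500 bp on chromosome 13 (144855821 to 145668320, plus strand) with 49 transcripts. AAK1 spans 166339 bp on chromosome 3 (72793977 to 72960315, plus strand) with 6 transcripts, and NFAT5 spans 121441 bp on chromosome 6 (17313511 to 17434951, minus strand) with 15. The 250 bases before the annotated starts of AAK1 and NFAT5 are shown as the sequence nearest to the start of each gene. Capitals mark matches on either strand to the GC box (GGGCGG), the CCAAT box (CCAAT) and the core of the tonicity element that NFAT5 binds (TGGAAA). The bases come from the RefSeq genome Sscrofa11.1 and run 5′ to 3′ along the strand of the gene.
AAK1, chr3:72793727-72793976, plus strand: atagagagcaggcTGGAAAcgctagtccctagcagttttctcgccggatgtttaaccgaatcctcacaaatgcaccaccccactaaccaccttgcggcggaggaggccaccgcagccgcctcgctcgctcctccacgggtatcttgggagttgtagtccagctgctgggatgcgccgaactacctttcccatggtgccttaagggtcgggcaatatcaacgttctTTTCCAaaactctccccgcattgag
NFAT5, chr6:17434952-17435201, minus strand: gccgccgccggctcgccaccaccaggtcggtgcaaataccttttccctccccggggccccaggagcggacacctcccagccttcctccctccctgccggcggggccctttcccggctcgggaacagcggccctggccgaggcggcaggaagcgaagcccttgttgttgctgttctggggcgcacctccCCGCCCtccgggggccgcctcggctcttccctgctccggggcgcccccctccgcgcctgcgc

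No motif occurred in both stretches. NFAT5 had 1 GC box and AAK1 had 2 copies of the tonicity core, and neither held a CCAAT box. Among 19509 stretches of this length before RefSeq genes, 46.0% held a GC box, 31.9% a CCAAT box and 17.8% the tonicity core. GC content was 56.4% for AAK1 and 75.2% for NFAT5, against a median of 57.6% over all stretches. A match describes the letters and not a bound site.

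The library names carry a conflict that touches the results. The names on the count files were used here. In the authors' expression table, 8 of 19 columns match a count file of another group, with the Control and RemoLV names exchanged and 1 DOX library exchanged with 1 MYO library. The numbers in the count file names also fall into 3 separate runs, 1 with all 10 DOX and MYO libraries, 1 with the 3 RemoLV libraries and 1 with the 6 Hyper and Control libraries. What these numbers stand for is not stated. Since the runs follow the groups, group and run cannot be told apart for any difference between DOX and MYO, RemoLV, and Hyper and Control. Total counts lay between 9527710 and 20370209, with 15634520 or more in each Hyper and Control library and 16098496 or less in each of the others. The share of mitochondrially encoded counts was 12.7% to 19.7% in DOX and MYO, 17.3% to 21.2% in RemoLV and 18.6% to 28.8% in Hyper and Control. Genes of the Y chromosome summed to 172 to 252 CPM (counts scaled by library size) in the DOX and MYO libraries and to at most 0.226 CPM in the others, although all pigs are labelled female. The Y chromosome counts and the follow-up of 3 months thus both fall on DOX and MYO alone. Neither can be told apart from the drugs in a comparison with the other groups.

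ZBTB20 was high in Hyper and Control, and low in the other 3 groups. Its level was 99.8, 108 and 87.2 CPM in the Hyper libraries and 90.7, 84.8 and 80.7 CPM in the Control libraries, scaled with the TMM method. In DOX it was 2.68, 2.21, 2.40, 1.47 and 2.86 CPM, and in MYO 1.98, 2.43, 1.55, 1.13 and 2.88 CPM. In RemoLV it was 3.52, 3.10 and 3.66 CPM. No library lay between 3.66 and 80.7 CPM. The raw counts behind these levels were 1144 to 1453 in Hyper and Control, 41 to 55 in RemoLV and 13 to 43 in DOX and MYO, so that the low levels rest on few read pairs.

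AAK1 had the same order of groups with smaller steps. It measured 83.4, 68.0 and 64.2 CPM in Hyper and 58.2, 64.7 and 47.2 CPM in Control. In RemoLV it measured 14.7, 13.6 and 17.4 CPM. The DOX libraries held 15.7, 10.9, 10.3, 8.25 and 7.73 CPM and the MYO libraries 11.4, 11.08, 7.34, 6.58 and 8.55 CPM. DOX replicate 1, at 15.7 CPM, was the only DOX or MYO library inside the RemoLV range. Raw counts were 669 to 1214 in Hyper and Control and 76 to 252 in the other libraries.

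NFAT5 followed with 32.98, 46.2 and 30.3 CPM in Hyper and 25.5, 36.0 and 24.5 CPM in Control. It measured 5.14, 7.67 and 4.99 CPM in RemoLV. In DOX it measured 6.43, 4.33, 3.799, 4.22 and 3.03 CPM and in MYO 2.93, 3.26, 4.51, 4.07 and 2.54 CPM. Again DOX replicate 1 lay inside the RemoLV range and the other 9 DOX and MYO libraries lay below it. Raw counts were 341 to 614 in Hyper and Control and 30 to 136 in the other libraries.

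**Figure D1:**
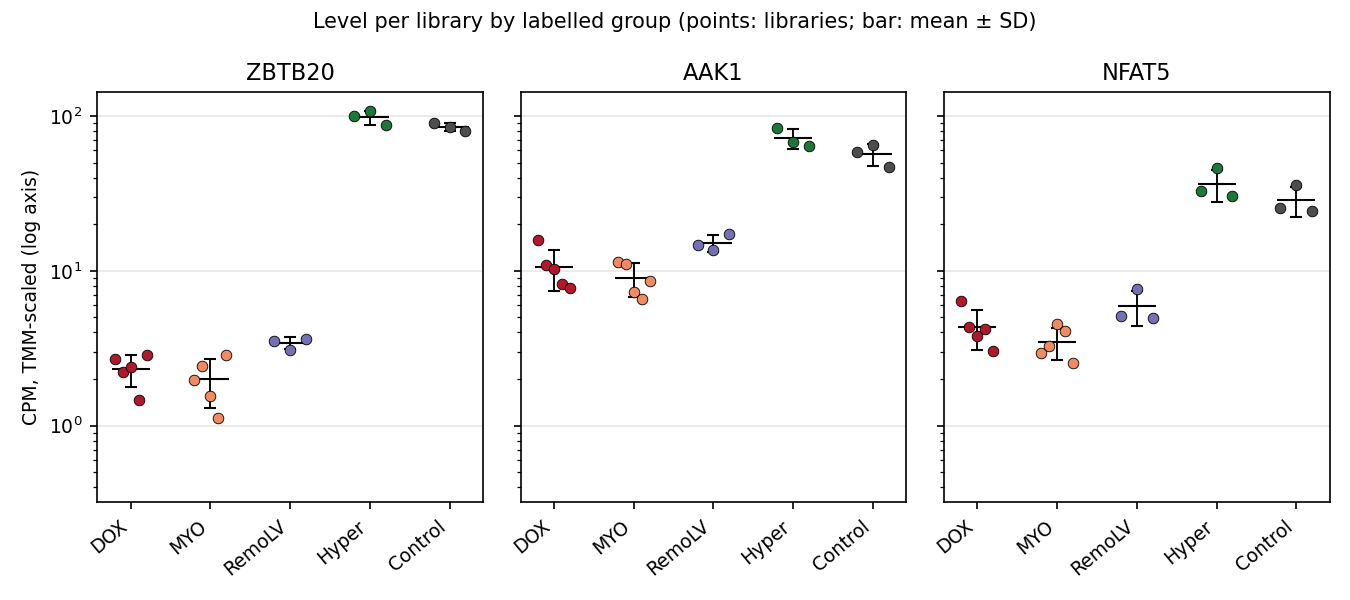
TMM-scaled CPM on a log axis of ZBTB20, AAK1 and NFAT5 in each of the 19 libraries, by labelled group, with 1 point per library and a bar at the mean ± SD. Every Hyper and Control library stands above every DOX, MYO and RemoLV library, and the ZBTB20 gap runs from 3.66 to 80.7 CPM.

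As group means ± SD, ZBTB20 was 98.2 ± 10.3 CPM in Hyper (n = 3), 85.4 ± 5.03 in Control (n = 3), 3.43 ± 0.288 in RemoLV (n = 3), 2.32 ± 0.54 in DOX (n = 5) and 1.99 ± 0.692 in MYO (n = 5). AAK1 was 71.9 ± 10.2, 56.7 ± 8.87, 15.2 ± 1.95, 10.6 ± 3.17 and 8.99 ± 2.18 CPM in the same order of groups. NFAT5 was 36.5 ± 8.52, 28.7 ± 6.36, 5.93 ± 1.51, 4.36 ± 1.26 and 3.46 ± 0.814 CPM. The order of the means was thus Hyper, Control, RemoLV, DOX, MYO for each gene under the file labels. With the table names Control and RemoLV change places in each gene, and DOX and MYO change places in ZBTB20. The ranges of Hyper and Control overlapped for each gene, and so did those of DOX and MYO. RemoLV and DOX overlapped in AAK1 and NFAT5 but not in ZBTB20, and Control and RemoLV did not overlap in any of the 3.

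The mean of Hyper and Control was 42.6 times the mean of DOX and MYO for ZBTB20, 6.58 times for AAK1 and 8.33 times for NFAT5. The lowest Hyper or Control library was 28.0, 3.00 and 3.82 times the highest DOX or MYO library. Each Hyper and Control library lay above each DOX and MYO library for all 3 genes by the way they were picked, as was the case for 7.53% of all genes tested. On the log2 scale of the edgeR model, ZBTB20 was -5.41 (SE 0.14) in DOX and MYO relative to Hyper and Control, AAK1 -2.71 (SE 0.146) and NFAT5 -3.05 (SE 0.162). Relative to Hyper alone, which holds no library with a conflict of group names, the values were -5.51 (SE 0.152), -2.88 (SE 0.167) and -3.22 (SE 0.185), with 16.9% of all genes lower and 15.8% higher. When the 12641 tested genes that have a symbol were ordered from the lowest value, ZBTB20 stood at rank 1, NFAT5 at rank 17 and AAK1 at rank 22. These ranks describe the pick. In all, 25.0% of genes were lower in DOX and MYO at an adjusted p of at most 0.05 and 0.826%, or 112 genes, were also at least 4-fold lower.

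The ratio between members differed between the low and the high libraries. In read pairs, ZBTB20 was 0.227 ± 0.0706 times AAK1 in DOX and MYO (SD, n = 10), 0.226 ± 0.0146 times in RemoLV (n = 3) and 1.45 ± 0.194 times in Hyper and Control (n = 6). Gene length cancels in this comparison because the same pair of genes is counted in each library. AAK1 relative to NFAT5 was 2.61 ± 0.766, 2.71 ± 0.866 and 2.02 ± 0.374 in the same order, and these ranges overlapped.

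The RemoLV libraries belonged with the low libraries. Their means were 26.8-fold lower than Hyper and Control for ZBTB20, 4.22-fold for AAK1 and 5.49-fold for NFAT5. The log2 fold changes against Hyper and Control were -4.74 (SE 0.224), -2.07 (SE 0.22) and -2.43 (SE 0.246), and against Control alone -4.64 (SE 0.232), -1.90 (SE 0.238) and -2.26 (SE 0.264). Every RemoLV library was below every Hyper and Control library for each member, which held for 19.0% of all genes, and 5.68% had every Hyper and Control library above all others. With the table names, in which the libraries labelled RemoLV here are Control, the direction turns, to 2.22, 0.78 and 0.96 for RemoLV against Hyper and Control and 4.64, 1.90 and 2.26 against Control. The values under the file labels share the Hyper and Control libraries with the comparison that picked the genes and are given without a test.

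Under the file labels, RemoLV was slightly above DOX and MYO in all 3 genes. The ratio of means was 1.59 for ZBTB20, 1.56 for AAK1 and 1.52 for NFAT5, and the log2 fold changes were 0.67 (SE 0.196), 0.64 (SE 0.187) and 0.61 (SE 0.215). The NFAT5 value was 0.37 (SE 0.251) without RemoLV replicate 2, and with the table names the 3 values were 5.30, 2.55 and 2.88. Each RemoLV library exceeded all 10 DOX and MYO libraries in ZBTB20, a pattern that 13.5% of genes showed, and 9 of 10 in AAK1 and NFAT5. On the way from DOX and MYO to Hyper and Control on the log2 scale, RemoLV stood at 12.7% for ZBTB20, 24.5% for AAK1 and 19.9% for NFAT5. The median place over the 112 genes at least 4-fold lower in DOX and MYO was 41.8%. Of these 112 genes, 40 (35.7%) were also at least 4-fold lower in RemoLV than in Hyper and Control, the 3 members among them. Both comparisons share the Hyper and Control libraries, and 23.7% of all genes were lower in RemoLV at an adjusted p of at most 0.05. AAK1 lay near the 4-fold limit, at -2.07 (SE 0.22). It missed the limit at -1.998 without RemoLV replicate 2 and at -1.65 with library totals.

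The libraries labelled RemoLV also stood apart in tissue markers. A list of atrial cardiomyocyte genes, of which 6 of 7 were in the counts, with the light chain MYL4, summed to 9459 to 12733 CPM in RemoLV, 760 to 2405 CPM in DOX and MYO and 84.6 to 1251 CPM in Hyper and Control. MYL2, the ventricular light chain, was -8.09 (SE 0.504) in RemoLV relative to Hyper and Control on the log2 scale (adjusted p = 1.69e-09, edgeR quasi-likelihood test), where 23.7% of all genes were lower. The 5 ventricular genes summed to 25022 to 29133 CPM in RemoLV and 50048 to 74544 CPM in Hyper and Control. MYH7 alone held 23761 CPM on average in RemoLV, and its log2 fold change was -0.78. MYL3 stood at -1.30, HEY2 at -4.43 and IRX4 at -6.65, so all 5 markers of the labelled LV wall were low in the RemoLV libraries. A list of 6 fibroblast genes summed to 10667 to 12328 CPM in RemoLV, 4529 to 7020 CPM in DOX and MYO and 1535 to 3823 CPM in Hyper and Control. In DOX and MYO against Hyper and Control only its 3 collagens were called, with log2 fold changes of 1.05 to 1.23, while PDGFRA, DCN and LUM stood at -0.25, -0.09 and 0.22. These marker differences, the mitochondrial share, the Y chromosome counts, the follow-up time and the file number runs all differ between the groups. Their part in the levels of ZBTB20, AAK1 and NFAT5 was not tested. In bulk tissue, fewer cells of a type and less RNA per cell cannot be told apart.

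**Figure D2:**
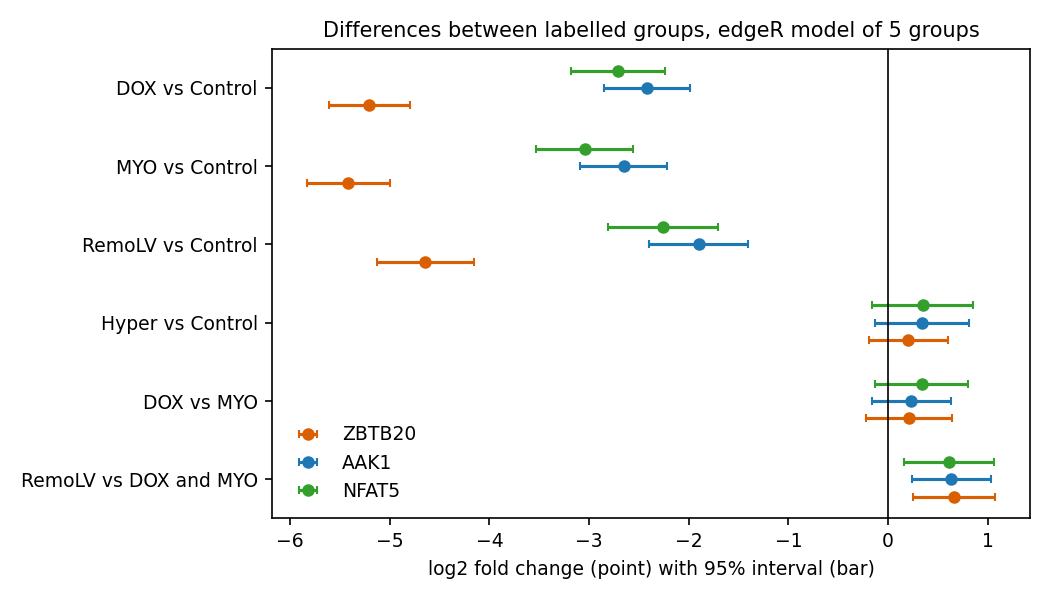
Log2 fold change with its 95% interval for 6 comparisons of labelled groups, 1 colour per gene, from 1 edgeR model. The comparisons of DOX, MYO and RemoLV with Control lie between -5.41 and -1.90. Those within the high pair and within the low pair have intervals across 0. Those of RemoLV with DOX and MYO lie between 0.61 and 0.67. Only the intervals of Hyper vs Control and DOX vs MYO belong to a test, and the others are a description without a test.

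DOX and MYO share the active drug and differ in its liposomal carrier, and the pick did not use their difference. ZBTB20 differed by a log2 fold change of 0.21 (SE 0.206, 95% interval -0.22 to 0.64, adjusted p = 0.859, edgeR quasi-likelihood test, Benjamini-Hochberg). For AAK1 the difference was 0.23 (SE 0.19, interval -0.17 to 0.63, adjusted p = 0.819 by the same edgeR test). For NFAT5 it was 0.34 (SE 0.222, interval -0.13 to 0.80, adjusted p = 0.771 by the same edgeR test). Thus 0 of 3 members were called, as were 0.0% of all genes. At an unadjusted p under 0.05 there were 960 genes, and DESeq2 called 2. Leaving out 1 library at a time gave 0.072 to 0.368 for ZBTB20, 0.039 to 0.333 for AAK1 and 0.147 to 0.455 for NFAT5, with the lowest value without MYO replicate 4 for ZBTB20 and without DOX replicate 1 for the others. With the table names, which exchange 1 DOX and 1 MYO library, the values were -0.012, 0.45 and 0.321. The intervals leave room for a difference between the formulations of up to 0.80 on the log2 scale.

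Hyper and Control were compared in the same way. Hyper was 0.20 higher on the log2 scale in ZBTB20 (SE 0.189, 95% interval -0.20 to 0.60, adjusted p = 0.59, edgeR), 0.34 in AAK1 (SE 0.226, interval -0.13 to 0.82, adjusted p = 0.426, edgeR) and 0.35 in NFAT5 (SE 0.243, interval -0.16 to 0.86, adjusted p = 0.456, edgeR). None of the 3 members passed, with 0.0% of all genes called, 2418 at an unadjusted p under 0.05 and 312 called by DESeq2. With the names of the authors' table, in which the libraries called Control here are RemoLV, the difference was 4.84, 2.24 and 2.61, given without a test because it sets the Hyper libraries against low libraries, and 4856 of 13552 genes were called (edgeR). Leaving out 1 library at a time gave 0.131 to 0.28, 0.22 to 0.446 and 0.142 to 0.543 under the file labels.

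Relations between the members were computed within the low and within the high libraries, since the pick used only the step between them. Over the 10 DOX and MYO libraries, ZBTB20 and AAK1 had a Pearson r of 0.551 (permutation p = 0.0992, adjusted over 12 relations 0.304), which was 0.228 without the 2 farthest libraries, and a Spearman rho of 0.394 (permutation p = 0.264). ZBTB20 and NFAT5 had an r of -0.262 (permutation p = 0.462), or -0.224 without the 2 farthest libraries, and a rho of -0.394 (permutation p = 0.261). AAK1 and NFAT5 had an r of 0.349 (permutation p = 0.324), which was -0.142 without the 2 farthest libraries and -0.252 without DOX replicate 1. Over the 6 Hyper and Control libraries r was 0.705, 0.723 and 0.609 for the 3 pairs (exact permutation p = 0.115, 0.1 and 0.188), with rho of 0.714, 0.6 and 0.829. Without the 2 farthest libraries these r were 0.612, 0.047 and 0.929, and centred on group means they were 0.423, 0.56 and 0.366. The members against total counts and mitochondrial share in DOX and MYO had r from -0.39 to 0.541. None of the 12 relations passed adjustment, and with so few libraries these values are descriptions.

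The genes with the most similar pattern over the 19 libraries were NFIB, RPL34, ATRX, PRRC2C, RSF1, NUCKS1, KMT2E, THOC2, KIAA2026 and RPL26, with Pearson r from 0.979 to 0.989 against the mean standardised log2 CPM of the members, of 9852 genes ranked. The 19 libraries share the runs, so r has no p. NFIB, a nuclear factor I transcription factor, came first and ranged from 7.92 to 14.7 CPM in DOX and MYO, 14.8 to 25.1 CPM in RemoLV and 112 to 230 CPM in Hyper and Control. ATRX, a chromatin remodeller, ranged from 27.4 to 42.4, 42.2 to 48.7 and 138 to 189 CPM. RPL34 and RPL26 are proteins of the large ribosomal subunit, and RPL34 ranged from 166 to 205, 206 to 214 and 348 to 418 CPM. Their log2 fold changes were -3.77 for NFIB, between ZBTB20 and NFAT5, -2.29 for ATRX and -1.01 for RPL34, and -2.31, -1.37 and -0.62 under the table names. Within the 10 DOX and MYO libraries, after centring on group means, the 5 most similar genes were others, namely ITGA5, SZRD1, DNAJB5, BAZ1A and LPL (r from 0.949 to 0.974).

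**Figure D3:**
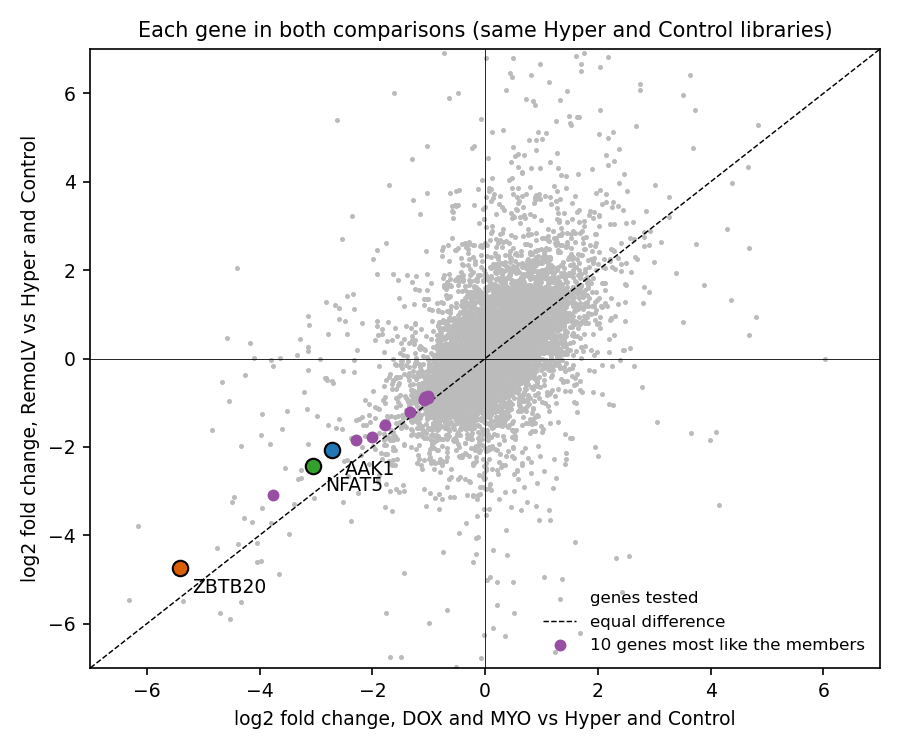
Log2 fold change of DOX and MYO (horizontal axis) and of RemoLV (vertical axis), each relative to Hyper and Control, for 13506 genes, with 46 genes outside the axes, the 3 members and the 10 most similar genes in colour. The members lie near the dashed line of equal difference, on its upper side, and both axes share the Hyper and Control libraries.

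ZBTB20 has the longest annotated 3′ UTR of the members. It was 24330 bases, which is above 99.98% of 11948 matched genes, against 6148 for AAK1 (above 96.2%) and 1162 for NFAT5 (above 51.3%). Transcript GC content was low in all 3, at 40.9%, 45.5% and 38.9%, or percentiles 14.3, 31.3 and 7.52. Genes do not count as independent replicates, and across them the log2 fold change of DOX and MYO against Hyper and Control followed GC content with a Spearman rho of 0.534, from a median of -0.36 in the lowest decile to 0.54 in the highest. The length of the 3′ UTR had a rho of -0.075. After the median of the gene's own GC decile was subtracted, a step chosen after seeing the data, the members stood at -5.14, -2.58 and -2.69. ZBTB20 and AAK1 were the lowest of 1195 and 1194 genes in their deciles and NFAT5 was rank 5 of 1195. These decile ranks describe the pick, and the part of GC content in the levels was not tested. Overlap with other annotated genes was small and on the opposite strand, namely a tRNA and a pseudogene for AAK1 and 1683 bases of a long non-coding RNA for NFAT5.

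**Figure D4:**
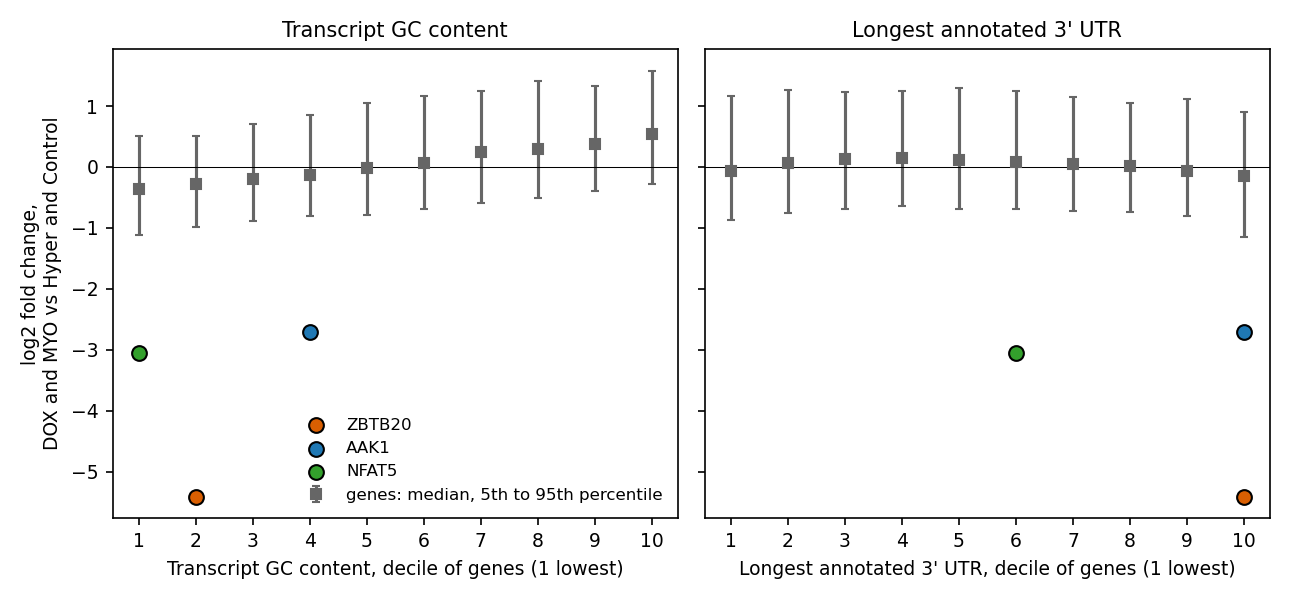
Log2 fold change of DOX and MYO relative to Hyper and Control by decile of transcript GC content and of the longest annotated 3′ UTR, with squares at the decile medians and bars from the 5th to the 95th percentile of genes. The medians rise with GC content from -0.36 to 0.54. The 3 members lie below the bars in both panels, a position that describes the pick.

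Among 35 tested genes named ZBTB other than ZBTB20, 6 were higher and 11 lower in DOX and MYO (adjusted p of at most 0.05, edgeR), with a median log2 fold change of -0.08. Over all genes, 25.8% were higher and 25.0% lower and the median was 0.03. With library totals in place of TMM, which moved the median of all genes from 0.03 to 0.37, the ZBTB counts were 15 higher and 5 lower. They were 6 higher and 4 lower with the table names. Against Hyper alone they were 3 higher and 8 lower, where 15.8% of all genes were higher and 16.9% lower. The lowest relative was ZBTB16 (PLZF, a transcriptional repressor) at -1.73 (SE 0.291, adjusted p = 9.7e-05, edgeR), followed by ZBTB37 at -1.16, ZBTB41 at -0.93, ZBTB8A at -0.93, ZBTB44 at -0.71 and ZBTB24 at -0.58. ZBTB45 at 0.89 and ZBTB12 at 0.83 were the highest. With the table names ZBTB16 at -0.68, ZBTB8A, ZBTB24, ZBTB45 and ZBTB12 were not called, and the last pair was not called against Hyper alone either. ZBTB24 was at -0.25 with library totals, not called. NFKBIA, which ZBTB20 is known to repress, was lower at -0.84 (SE 0.148, adjusted p = 0.000152, edgeR) in DOX and MYO and at -0.37, not called, with the table names, and AFP did not pass the filter on low counts.

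The kinases related to AAK1 are BMP2K, GAK and STK16. BMP2K, its closest relative, was lower at -1.80 (SE 0.154, adjusted p = 5.67e-08, edgeR), GAK, the cyclin G-associated kinase that helps uncoat clathrin vesicles, was higher at 0.65 (SE 0.118) and STK16 stood at 0.04 with adjusted p = 0.716 (edgeR). Of 23 genes for AP-2, clathrin and endocytic partners, 5 were higher and 4 lower, with a median of 0.09, against 25.8% and 25.0% of all genes, so neither share stands above that of all genes. Those higher were FCHO1, which starts coated pits, at 1.40, NECAP2 at 0.49, EPN1 at 0.47, AP2A2, an AP-2 subunit, at 0.38 and DNM2, the dynamin that cuts vesicles free, at 0.31. Those lower were the AP-2 subunit AP2B1 at -0.35, the clathrin heavy chain CLTC at -0.34, PICALM at -0.30 and EPS15. These lower calls depend on the setting. With library totals 18 genes of this list were higher and 0 lower, CLTC was 0.03 and PICALM 0.05. There were 0 lower against Hyper alone, 1 with the replicate block, 2 with the table names and 1 without Hyper replicate 1 or Control replicate 3. With the table names and against Hyper alone, NECAP2 and AP2A2 were not called as higher. AP2M1, the subunit that AAK1 phosphorylates, stood at 0.08 (SE 0.082, adjusted p = 0.42, edgeR).

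The NFAT family and calcineurin list had 8 tested genes, 2 higher and 4 lower, with a median of -0.24, against 25.8% and 25.0% of all genes. NFATC4 at 0.65 and NFATC2 at 0.51, calcineurin-dependent NFAT factors, were higher. The calcineurin subunits PPP3CA at -0.82, PPP3CB at -0.62 and PPP3R1 at -0.38 were lower, as was RCAN2, a regulator of calcineurin, at -0.63. RCAN2, NFATC2 and PPP3R1 were not called with the table names, the latter pair was not called against Hyper alone, and PPP3R1 was at -0.018 with library totals, not called. PPP3CA went the other way in RemoLV under the file labels, at 0.83 against Hyper and Control, where NFAT5 was at -2.43.

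Of 12 listed tonicity targets of NFAT5, 8 were tested. Of these, 2 were higher and 2 lower, shares close to the 25.8% and 25.0% of all genes. Their median was 0.24, against 0.03 over all genes. SLC6A6, the taurine transporter, was higher at 0.71 (SE 0.273) and AQP1, a water channel, at 0.21 (SE 0.066). SLC38A2, an amino acid transporter, was lower at -0.73 (SE 0.267) and AKR1B1, the aldose reductase that makes sorbitol, at -0.23 (SE 0.068). With library totals 4 targets were higher and 0 lower, and AKR1B1 was 0.12. SLC5A3, the myo-inositol transporter, stood at 0.29 (SE 0.21, adjusted p = 0.269, edgeR). Under the table names 3 were higher and 0 lower, SLC38A2 was 0.18 and AKR1B1 0.17. With the replicate block 1 target was higher and 1 lower. The count of 2 higher targets was 1 without DOX replicate 1, DOX replicate 4, MYO replicates 2, 4 or 5, any Hyper replicate, or Control replicates 2 or 3. The count of 2 lower targets was 1 without Hyper replicate 1, Control replicate 1 or Control replicate 3.

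**Figure D5:**
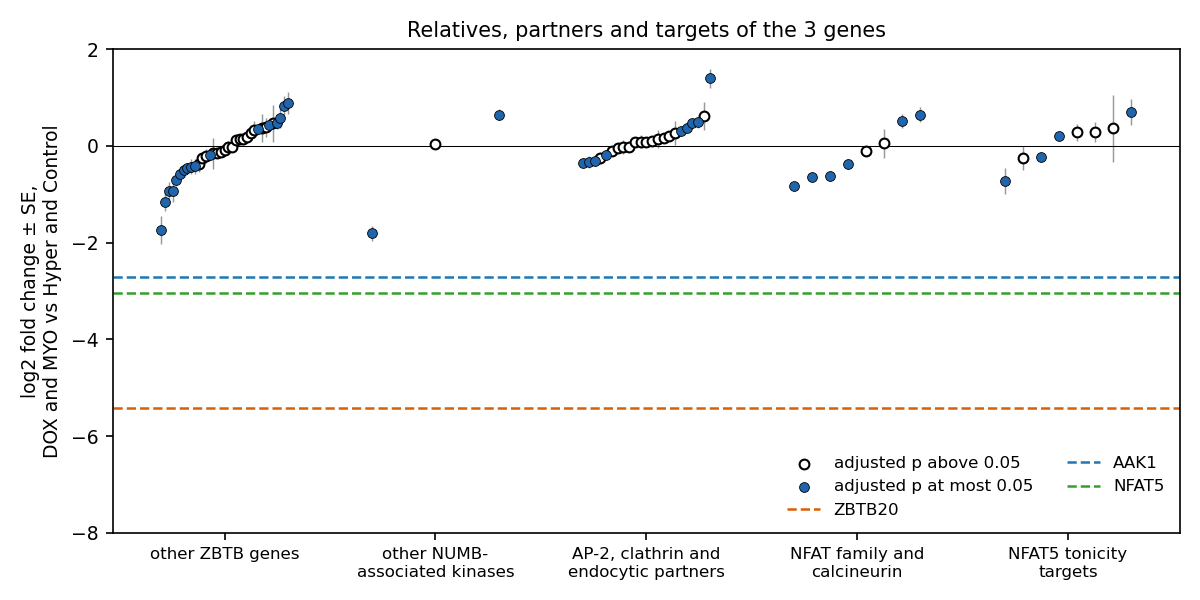
Log2 fold change ± SE of DOX and MYO relative to Hyper and Control for each tested gene of 5 lists, filled where the adjusted p was at most 0.05, with dashed lines at the 3 members. The relatives, partners and targets lie between -1.80 and 1.40, and the members at -2.71, -3.05 and -5.41.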

How the data were processed

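Poly(A)-selected, strand-specific LV libraries of 19 pigs were sequenced by the authors, who aligned read pairs with STAR to Sscrofa11.1 and assigned them to Ensembl genes with HTSeq 0.11.1, reverse-stranded. The deposited counts are raw, with no normalization and no pooled samples. The authors also deposited a table with log2 expression values, used here only for symbols and to match library names, and their own log2 fold changes and adjusted p-values, which were not read. No column of per-sample values was left out (0 columns).

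Genes were filtered with filterByExpr, scaled by TMM and tested with the quasi-likelihood test of edgeR 4.0.16 (R 4.3.3) in 1 model of 5 groups, with Benjamini-Hochberg adjustment over 13552 genes and a threshold of 0.05. CPM values are TMM-scaled, and log2 CPM used a prior count of 2. Correlations used 100000 permutations over 10 libraries and all orders over 6. Alternatives were DESeq2 1.42.0, median-of-ratios factors, library totals, no filter, a replicate block, the table names and leaving out each library. The members and lists were chosen with earlier results of these data known. Named were the 3 members, up to 8 called genes per list by absolute log2 fold change, the 10 genes most similar over 19 libraries and the 5 most similar over the 10 DOX and MYO libraries, with a mean log2 CPM of at least 2. EPS15, STK16, AP2M1, SLC5A3 and the markers MYL2, MYL3, MYL4, MYH7, HEY2, IRX4, PDGFRA, DCN and LUM were named besides. The ZBTB list was taken by symbol and holds ZBTB8OS, which is no BTB protein. Gene models, sequences and GC content came from RefSeq Sscrofa11.1. The sequence before the start of the other member is not reported here.

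Libraries of a group differed by more than counting noise, with a lowest mean chi-square of 12.3 per gene, and each was counted as 1 replicate. The labels name 19 pigs, so p-values measure the spread between pigs. The range of total counts over the libraries is given in the report. On simulated counts, a log2 fold change of 2 was recovered for 96% of changed genes in DOX vs MYO and 91% in Hyper vs Control. A log2 fold change of 1 was recovered for 55% and 25%. The simulated counts had 1 spread for all genes and, apart from the changed genes, 1 mean profile for all groups. The rates therefore need not hold for the real libraries.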

Additional observations from a re-analysis of the deposited data

How the results depend on the processing

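The results depended most on which names were used. With the table names, RemoLV vs Control became 4.64, 1.90 and 2.26 for ZBTB20, AAK1 and NFAT5 on the log2 scale, RemoLV vs Hyper and Control 2.22, 0.78 and 0.96, RemoLV vs DOX and MYO 5.30, 2.55 and 2.88, and Hyper vs Control 4.84, 2.24 and 2.61. DOX and MYO vs Hyper and Control became -3.08, -1.77 and -1.92, and ZBTB20 in DOX vs MYO -0.012. The table names gave 4 lower ZBTB genes, 8 higher and 2 lower endocytic genes, 2 lower NFAT genes and 0 lower tonicity targets, and CLTC, SLC38A2 and AKR1B1 stood at 0.022, 0.18 and 0.17.

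With library totals, RemoLV vs Control was -4.14, -1.41 and -1.80, RemoLV vs Hyper and Control -4.32, -1.65 and -2.03, and ZBTB20 and AAK1 in DOX and MYO vs Hyper and Control -5.07 and -2.39. The lists then had 15 higher and 5 lower ZBTB genes, 18 higher and 0 lower endocytic genes, 2 higher kinases, and 4 higher and 0 lower targets, with CLTC at 0.029, PICALM at 0.052 and AKR1B1 at 0.12. Against Hyper alone there were 3 higher ZBTB genes, 3 higher and 0 lower endocytic genes, 1 higher NFAT gene and 1 lower target, and CLTC was 0.012. The cause of these changes was not tested. Subtracting the GC decile median moved NFAT5 to -2.69.

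Leaving out 1 library at a time gave 1 to 5 lower endocytic genes (1 without Hyper replicate 1 or Control replicate 3), 1 to 2 higher and 1 to 2 lower targets, and an r of AAK1 and NFAT5 from -0.252 to 0.474, with -0.142 without the 2 farthest libraries. DESeq2, median-of-ratios factors and no filter changed no call of a member or of a named gene, and the count of lower ZBTB genes was 13, 13 and 10. Of 32 same-numbered pairs, 4 had a correlation over 0.1 (range -0.246 to 0.242), among them all 3 of DOX with Control (0.117 to 0.242). In no other combination of groups were all pairs over 0.1, and the labels do not say that a number marks a shared batch. With the replicate block, DOX vs Control was -5.15, -2.25 and -2.58 for ZBTB20, AAK1 and NFAT5, against -5.20, -2.42 and -2.71 without it. With the replicate block there was 1 lower endocytic gene, 1 higher target and 1 lower target.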
